A study of Sus scrofa with 12 samples.

Results

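Accessible chromatin was compared between Duroc and Luchuan pigs around 10 genes of muscle heat shock proteins and chaperones. These were HSPB1, HSPB6, HSPB7, HSPB8, CRYAB, HSPA8, HSPH1, HSP90AA1, DNAJB1 and BAG3. In ATAC-seq a transposase inserts adapters where DNA is exposed, and the number of reads at a locus measures how open its chromatin is. The muscle was the longissimus dorsi, frozen whole and without sorting of cells, of 180-day-old boars, 3 of the lean Duroc breed and 3 of the obese Luchuan breed. All were fed alike, and no treatment is named. The table of peak intervals that was analysed gives 1 read count per breed for each interval, with no value per boar. None of the values below therefore has a replicate check, and no test between the breeds was made. A region was assigned to a gene when its midpoint lay in the gene body on Sscrofa11.1 or within 10 kb of it. Intervals called in both breeds are listed once for each breed, so that the 112 listed intervals around these genes were merged into 57 regions, out of 140081 regions in all.

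Chaperones bind proteins that are unfolded or misfolded and keep them from clumping. Small heat shock proteins hold such proteins without using ATP, while the HSP70 and HSP90 machines use ATP to refold them. J proteins such as DNAJB1 drive the HSP70 cycle, and HSP110 proteins such as HSPH1 and BAG proteins release its nucleotide. In skeletal muscle these proteins are abundant and guard the filaments and Z-discs against mechanical and heat stress. Heat shock factor HSF1 is the transcription factor best known for inducing them.

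The regions of these genes held more reads than most regions of the muscle, and the breeds were within 2-fold of each other in 55 of the 57. The 57 regions held 28236 Duroc reads and 17831 Luchuan reads over 32799 bases. Reads per region in both breeds together had a median of 474, against 100 over all regions, and 54 of the 57 regions lay above that median of all regions. By reads per kb, 39 regions were in the highest 10% of all regions. Both breeds called 43 of the regions (75.4%, against 49.1% of all regions). Another 13 regions were called in Duroc alone (22.8%, against 31.8% of all regions). Only 1 region, at CRYAB, was called in Luchuan alone (1.75%, against 19.1%).

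Before scaling, the Duroc count was the higher one in each of the 57 regions. The deeper Duroc libraries held 20760292 reads over all regions, against 13746432 in Luchuan. The Luchuan counts were therefore multiplied by 1.48, the median ratio of Duroc to Luchuan reads over the regions called in both breeds. All log2 ratios below are of scaled Luchuan reads over Duroc reads, so that a negative value means more Duroc reads. Intervals beside them are 95% Clopper-Pearson intervals. They cover counting error only, because each breed has 1 count and no value per boar. They also do not allow for reads that may be copies of 1 molecule. With the clean reads of the libraries as the scale, every ratio, and the median of all genes with it, was lower by about 0.20. In bulk tissue, the share of nuclei of a cell type and the accessibility in each nucleus cannot be told apart.

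With the median scale, 2 of the 57 regions were at least 2-fold higher in Duroc (3.51%), against 5.66% of all 140081 regions. They lay inside HSPB8 and inside HSPH1. None of the 57 was at least 2-fold higher in Luchuan, against 7.20% of all regions and 2.41% of the regions with 50 or more reads. The median ratio of the 57 regions was -0.14 (range, -1.17 to 0.30), against -0.02 over all regions. Smaller differences leaned towards Duroc. The ratio was below 0 in 43 of the 57 regions (75.4%), against 51.3% of all regions. Among regions with 500 or more reads it was below 0 in 19 of 28 (67.9%), against 48.6% of all regions of that depth. Among regions with at least 100 but under 500 reads it was below 0 in 22 of 26 (84.6%), against 60.2%. These counts include the 13 regions called in Duroc alone, where the calling itself favours a ratio below 0. Over the 43 regions that both breeds called, the median ratio was -0.11. Over all regions called in both breeds, which set the scale, it was 0.00. The interval lay below 0 in 14 regions (24.6%, against 15.4% of all regions) and above 0 in 3 regions (5.26%, against 13.6%). These shares of intervals are not matched by depth. Deeper regions have narrower intervals, and the median was 474 reads in the 57 regions, against 100 over all regions.

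**Figure D1:**
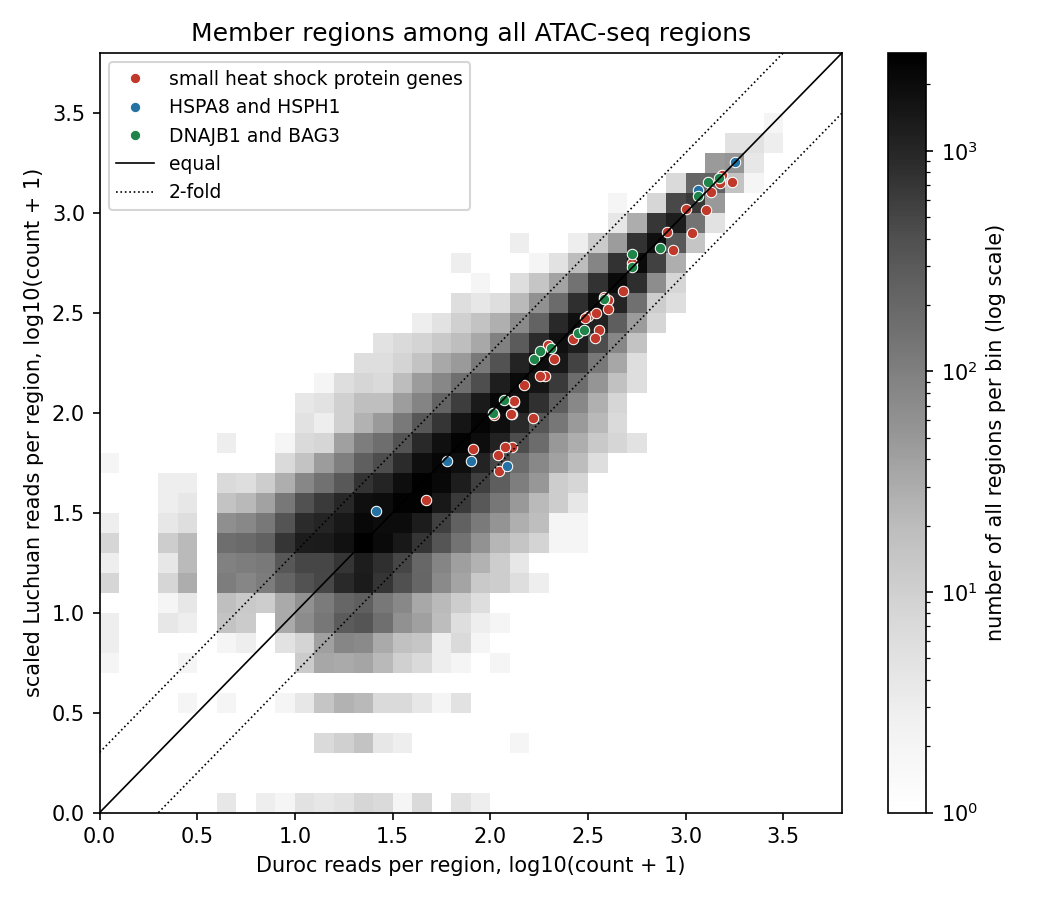
Duroc reads (x axis) against scaled Luchuan reads (y axis) per region, both as log10(count + 1), for all 140081 regions (grey bins, log colour scale) and the 57 regions of the chaperone genes (coloured points). The points sit in the upper range of both axes along the line of equal reads, and 2 of them lie beyond the 2-fold line on the Duroc side.

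**Figure D2:**
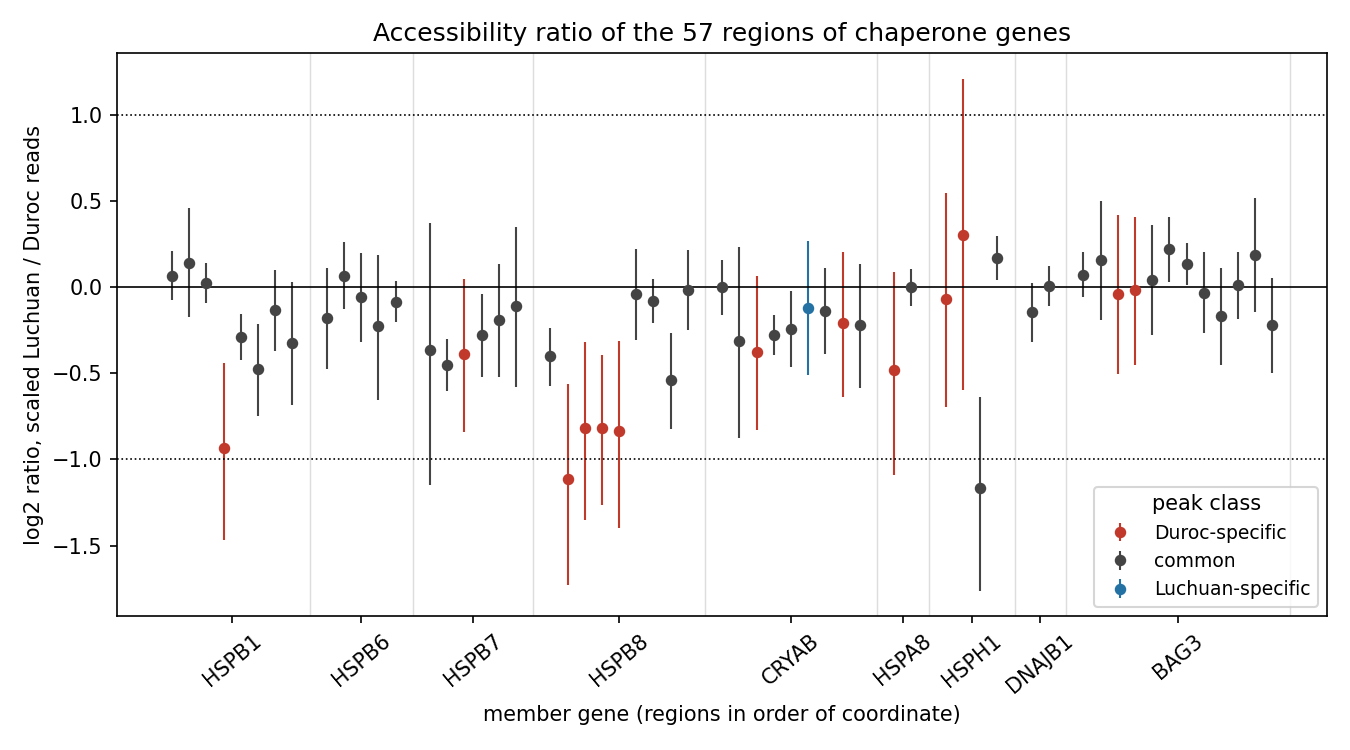
Log2 ratio of scaled Luchuan to Duroc reads for each of the 57 regions in order of coordinate within a gene, with 95% Clopper-Pearson intervals for counting error and colours for the breed that called the peak. The ratios of BAG3 stay between -0.22 and 0.22, and the lowest ratios belong to short regions inside HSPB1, HSPB8 and HSPH1.

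By the summed reads of each gene, the small heat shock protein genes had the lowest ratios. HSPB7 was lowest with a log2 ratio of -0.36, followed by HSPB8 with -0.27, CRYAB with -0.20, HSPB1 with -0.11 and HSPB6 with -0.07. DNAJB1 and HSPA8 followed with -0.04 and -0.02, which became 0.03 and 0.07 with a scale that follows the signal. BAG3 with 0.07 and HSPH1 with 0.08 were the only genes above 0 at this scale, and both were below 0 with the clean reads as the scale. Neighbours in this order had overlapping intervals. With a window of 2 kb, HSPB7, HSPB8 and CRYAB were nearly level, at -0.271, -0.268 and -0.266. With the window of 10 kb, HSPB7 (interval, -0.47 to -0.25) did not overlap HSPB1 (-0.17 to -0.04) or any gene after it. The interval was below 0 for 4 of the 9 genes with regions, against 24.7% of all 16972 protein-coding genes with reads. It was above 0 for 1 gene, BAG3, against 23.2%. No chaperone gene differed by 2-fold, while 170 of all genes were at least 2-fold higher in Duroc and 459 in Luchuan. The interquartile range of all genes was -0.14 to 0.15, and HSPB7, HSPB8 and CRYAB lay below that range. In the distribution of all genes, HSPB7 stood at percentile 7.91, HSPB8 at 12.4, CRYAB at 18.6 and HSPH1 at 64.7.

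**Figure D3:**
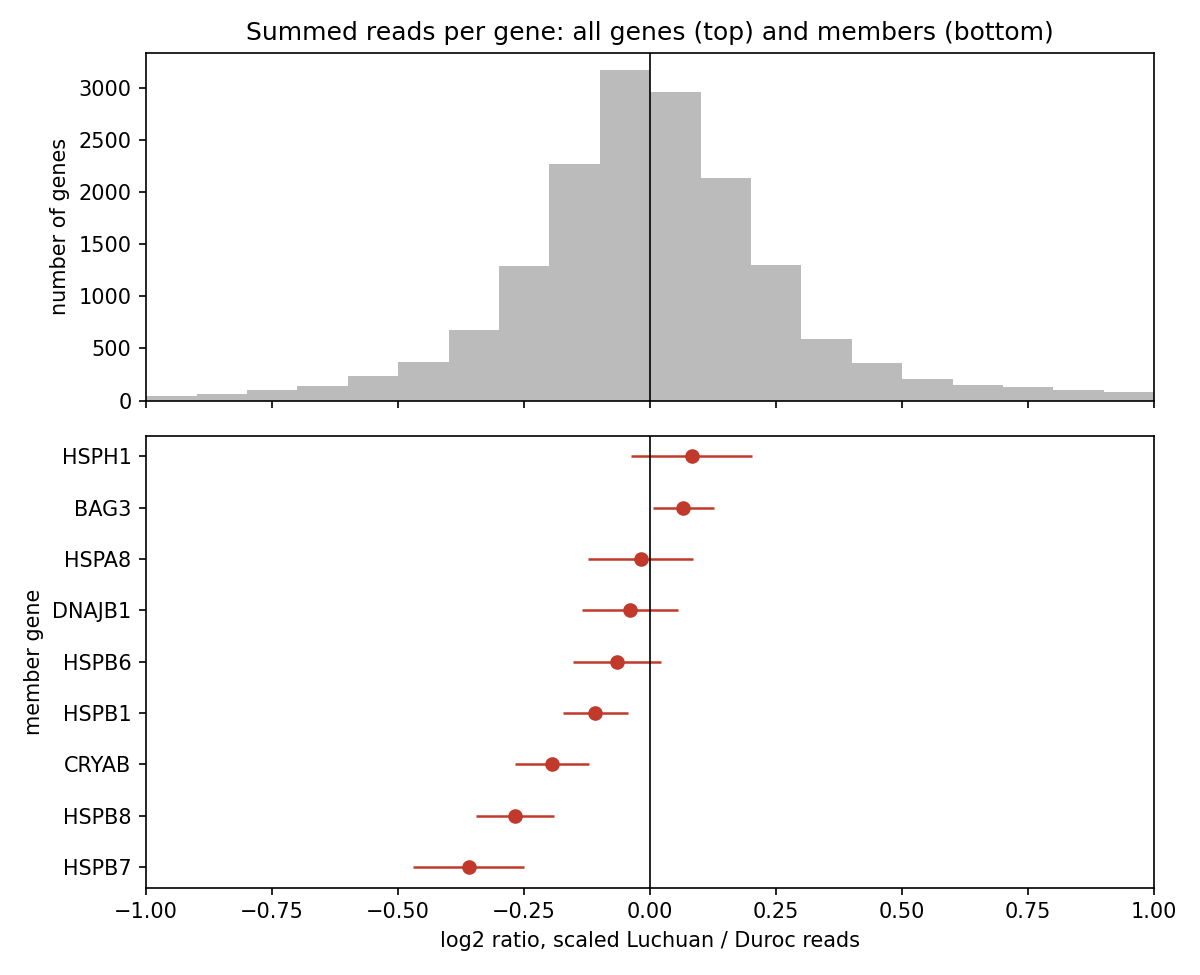
Top, number of protein-coding genes by log2 ratio of their summed scaled Luchuan to Duroc reads, in bins of 0.1 between -1 and 1. Bottom, the 9 chaperone genes with regions on the same axis, with 95% Clopper-Pearson intervals for counting error. HSPB7, HSPB8, CRYAB and HSPB1 have intervals below 0, and BAG3 has one above 0, its ratio being below 0 with the clean reads as the scale.

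HSPB7, a small heat shock protein of heart and skeletal muscle that binds filamin C, lies on chromosome 6 from 75171507 to 75174918. Its 6 regions held 1971 Duroc reads and 1037 Luchuan reads over 2830 bases, or 696 Duroc and 543 scaled Luchuan reads per kb. All 6 ratios were below 0, from -0.45 to -0.11. The region with the most reads was also the one with the largest difference, and it lay 1529 bases outside the lower end of the gene, from 75168679 to 75169978. It had 1083 reads in Duroc and 535 in Luchuan and a ratio of -0.45 (-0.60 to -0.30). The region across the upper end, from 75174658 to 75175254, had 399 reads in Duroc and 222 in Luchuan and a ratio of -0.28 (-0.52 to -0.04). For the other 4 regions, with 46 to 211 Duroc reads, the interval included 0.

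HSPB8 is the small heat shock protein that works in a complex with BAG3. It lies on chromosome 14 from 33626125 to 33639824, with no other annotated gene within 10 kb. Its 9 regions held 3738 Duroc and 2096 Luchuan reads over 4096 bases, and all ratios were below 0, from -1.11 to -0.02. The strongest, across the upper end of the gene from 33638984 to 33640071, had 1343 reads in Duroc and 858 in Luchuan and a ratio of -0.08 (-0.21 to 0.04). A further pair, from 33635866 to 33636229 and from 33641168 to 33641546, had ratios of -0.04 and -0.02. The region just outside the lower end, from 33624417 to 33625647, had 863 reads in Duroc and 441 in Luchuan and a ratio of -0.40 (-0.57 to -0.23). A region 390 bases beyond the upper end, from 33640214 to 33640568, had 343 and 159 reads and a ratio of -0.54 (-0.82 to -0.27).

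Between 2.3 and 6.1 kb inside HSPB8 from its lower end lay 4 short regions of 150 to 210 bases, each called in Duroc alone. The first, from 33628384 to 33628535, had 110 reads in Duroc and 34 in Luchuan, with a ratio of -1.11 (-1.73 to -0.56), the largest difference at this gene. The next, from 33629138 to 33629304, had 118 and 45 reads and a ratio of -0.81 (-1.35 to -0.32). The third, from 33630211 to 33630420, had 165 and 63 reads and a ratio of -0.82 (-1.27 to -0.40). The last, from 33632144 to 33632293, had 109 and 41 reads and a ratio of -0.83 (-1.40 to -0.31). The 4 ratios ran from -1.11 to -0.81, but the regions come from the same pooled libraries and are not replicates. Summed, a step chosen after their values were seen, they held 502 Duroc and 183 Luchuan reads, with a ratio of -0.89 (-1.14 to -0.64). The 5 regions of HSPB8 called in both breeds summed to -0.19 (-0.27 to -0.11). A region called in Duroc alone was picked by the same libraries, and over all 44532 such regions the median ratio was -0.38 and 15.6% were at least 2-fold higher in Duroc.

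**Figure D4:**
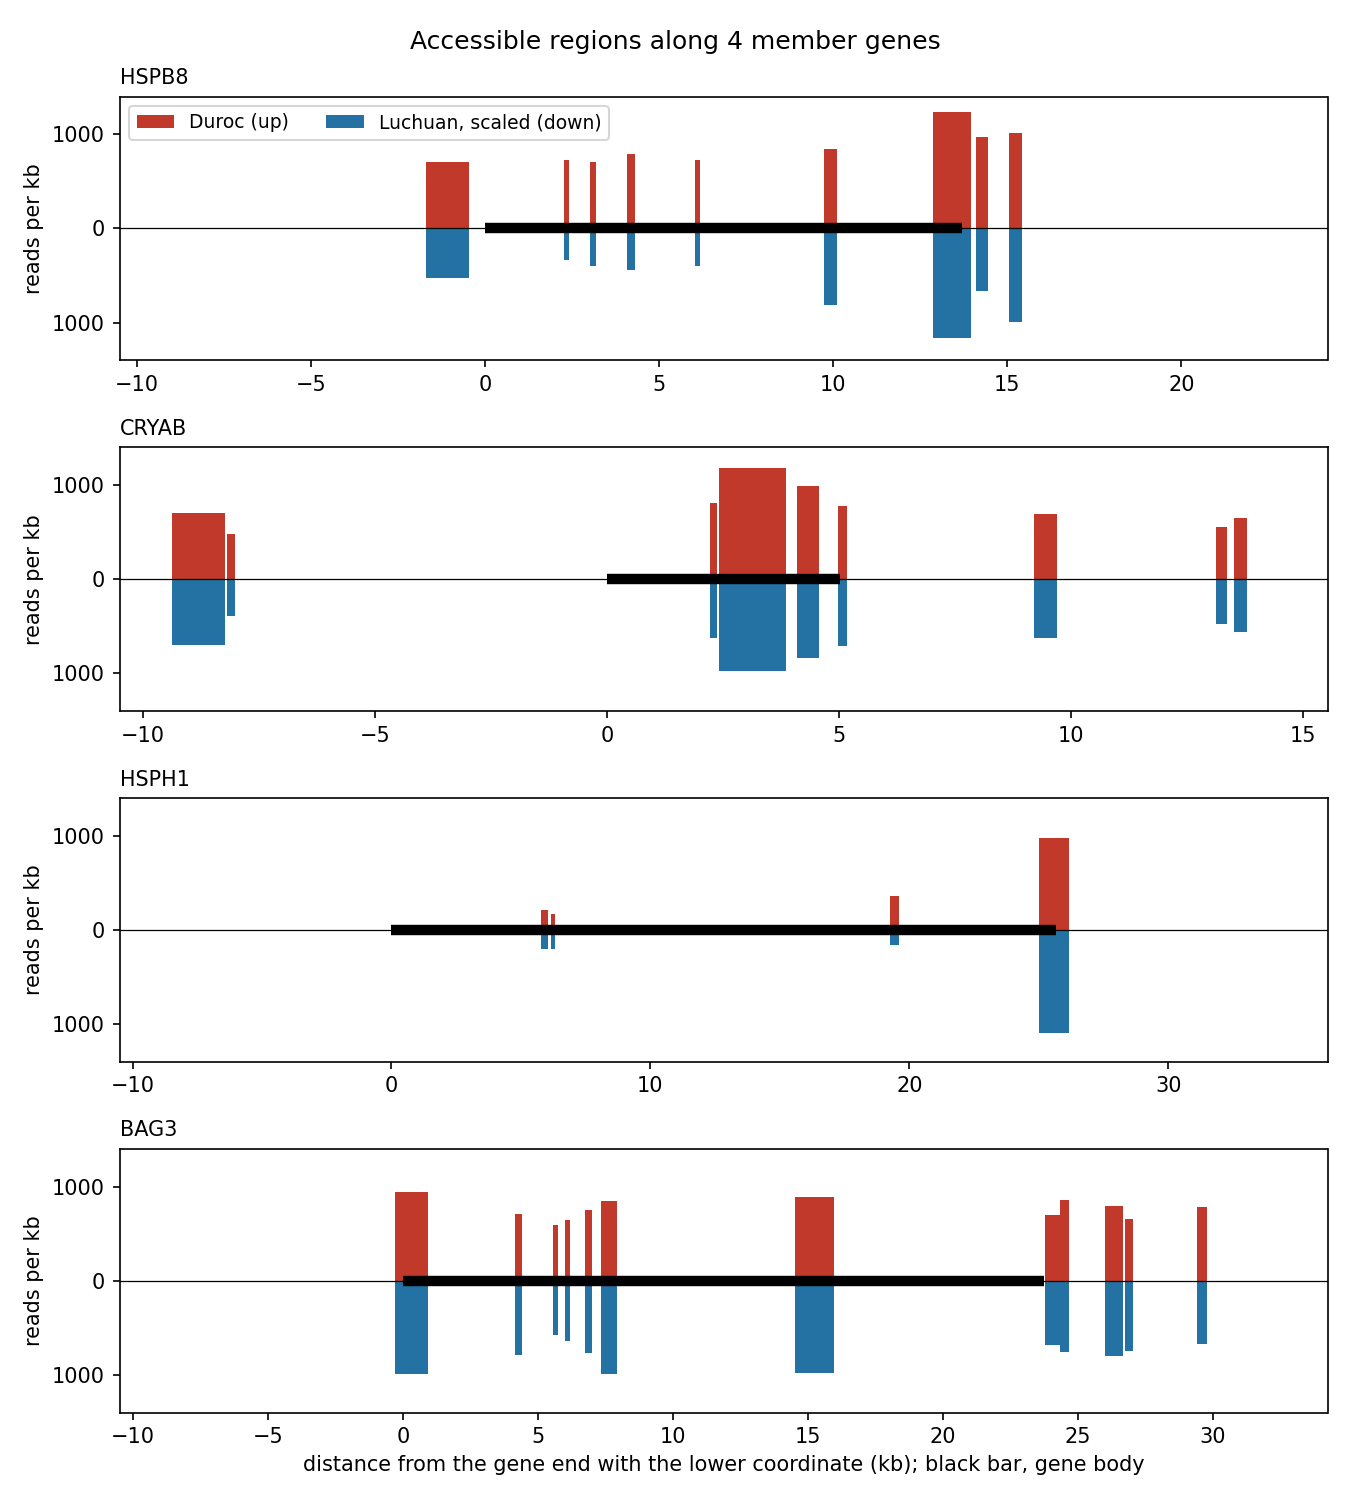
Reads per kb of each region along HSPB8, CRYAB, HSPH1 and BAG3, with Duroc above the axis and scaled Luchuan below it. The x axis is the distance in kb from the gene end with the lower coordinate, the black bar is the gene body, and bar widths are to scale. The 4 short regions inside HSPB8 and the region near 19.4 kb inside HSPH1 are taller in Duroc, as are the regions beside the lower end of HSPB8 and just beyond its upper end, while the ratios of BAG3 stay between -0.22 and 0.22.

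CRYAB encodes alpha-B crystallin, which protects desmin and other cytoskeletal proteins. It lies on chromosome 9 from 39638505 to 39643530, and its annotated body overlaps that of HSPB2, another small heat shock protein of muscle, and that of C9H11orf1. The reads there cannot be assigned to 1 of these genes. The 9 regions held 4024 Duroc and 2373 Luchuan reads over 4628 bases, and all of their ratios were below 0, from -0.37 to -0.00. The region with the most reads of the CRYAB window, from 39640913 to 39642371, had 1728 reads in Duroc and 962 in Luchuan and a ratio of -0.28 (-0.39 to -0.16). Next to it, from 39642600 to 39643082, 478 and 273 reads gave -0.24 (-0.46 to -0.02). The region across the upper end of CRYAB, from 39643487 to 39643677, was listed as specific to Luchuan, yet had 148 reads in Duroc and 92 in Luchuan and a ratio of -0.12 (-0.51 to 0.27). A small region from 39640719 to 39640875 had the lowest ratio, -0.37 (-0.83 to 0.06), with 127 and 66 reads. At the far side of the window, the region across the ends of FDXACB1 and C9H11orf1 had 805 and 543 reads and a ratio of -0.00 (-0.16 to 0.16). Next to it, a region from 39630326 to 39630493 had 81 and 44 reads and a ratio of -0.31 (-0.88 to 0.23). On the other side, 3 regions inside C9H11orf52 had ratios of -0.14, -0.21 and -0.22, with intervals that included 0. Only the 2 deepest regions of the part that CRYAB and HSPB2 share had an interval below 0.

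HSPB1 encodes Hsp27, which binds actin filaments, and lies on chromosome 3 from 10038074 to 10039441. Its 8 regions held 5062 Duroc and 3169 Luchuan reads over 4942 bases. The region with the most reads, 188 bases outside the lower end from 10036523 to 10037886, had 1525 reads in Duroc and 1048 in Luchuan and a ratio of 0.03 (-0.09 to 0.14). The region across the upper end, from 10038798 to 10039826, had 1265 and 700 reads and a ratio of -0.29 (-0.42 to -0.15). The ends of this short gene thus differed, with intervals that did not overlap. Between them, the region from 10038536 to 10038688 was called in Duroc alone and had 128 and 45 reads. Its ratio, -0.93 (-1.47 to -0.44), was the lowest of the locus. It was picked for that ratio, and its interval allows for neither that choice nor the calling in Duroc alone. Outside the gene, ratios ran from 0.07 and 0.14 on the lower side to -0.48, -0.13 and -0.32 on the upper side, towards SRRM3.

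HSPB6 encodes Hsp20, a small heat shock protein of muscle, and lies on chromosome 6 from 45181439 to 45184011 in a dense cluster of genes. Its 5 regions, all called in both breeds, held 2736 Duroc and 1766 Luchuan reads over 3438 bases. The region across its upper end also spans the end of PROSER3, from 45183633 to 45185424. It had the most reads, 1492 in Duroc and 951 in Luchuan, and a ratio of -0.08 (-0.20 to 0.04). The largest difference, inside the gene from 45182734 to 45182924, was -0.23 (-0.66 to 0.19) with 132 and 76 reads. Every interval at HSPB6 included 0.

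Muscle fiber genes leaned the same way as these small heat shock protein genes. All 6 markers of skeletal muscle fibers, ACTA1, CKM, MYLPF, TNNC2, DES and MYOT, had summed ratios below 0, from -0.46 for CKM to -0.04 for DES. Their interval was below 0 for 5 of 6, against 24.7% of all genes, and 50.2% of all genes had a ratio below 0. Intervals are narrower at deeper genes, and depth was not matched here. Each of these markers held 4536 to 5606 Duroc reads, so the labelled tissue was seen, and together they held 30359 Duroc and 26580 scaled Luchuan reads. Markers of other cells were weaker or went both ways. The 3 endothelial markers held 675 Duroc and 684 scaled Luchuan reads in all, with 559 of the Duroc reads at PECAM1. PECAM1 was at -0.13 (-0.32 to 0.07) and TEK, with 76 Duroc reads, at 0.79 (0.34 to 1.26). The 3 leukocyte markers held 2478 and 2294, with 2377 of the Duroc reads at CD68. The weak markers PTPRC and CD3E, with 88 and 13 Duroc reads, were at -1.09 (-1.75 to -0.46) and 1.26 (0.19 to 2.38). The sums thus hide markers that differed. The 3 fibroblast markers held 1221 and 1192. Of the adipocyte markers, FABP4 had no region, and ADIPOQ and PLIN1 held 265 and 304. The satellite cell genes PAX7 and MYF5 held 5022 and 4834, and the liver genes ALB and APOA1 held 480 and 490, nearly all at APOA1. The part of muscle fiber content in the ratios of the chaperone genes was not tested.

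HSPA8 encodes the constitutive HSP70 and lies on chromosome 9 from 49982278 to 49986760. Nearly all of its reads were in 1 region across its upper end, from 49985969 to 49987669. With 1796 reads in Duroc and 1212 in Luchuan it was the deepest of the 57, and its ratio was -0.00 (-0.11 to 0.11), or -0.20 with the clean reads as the scale. A second, weak region 3906 bases outside the lower end, called in Duroc alone, had 79 and 38 reads and a ratio of -0.48 (-1.09 to 0.09). The product of this gene serves general protein folding. At the median scale the counting interval of its end reached 0.11 on either side of 0, which leaves out differences between boars.

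HSPH1, the HSP110 that acts as a nucleotide exchange factor of HSP70, lies on chromosome 11 from 7733874 to 7759528. It held 1360 Duroc and 972 Luchuan reads over 1949 bases in 4 regions, which pointed in different directions. Across the upper end, from 7758875 to 7760056, there were 1155 Duroc and 877 Luchuan reads and a ratio of 0.17 (0.04 to 0.30), which was -0.03 with the clean reads as the scale. Inside the gene, 6055 bases from that end, a region that starts at 7753142 and ends at 7753473 had 121 reads in Duroc and 36 in Luchuan. Its ratio of -1.17 (-1.76 to -0.63) was the lowest of all 57 regions, although both breeds called it. These counting intervals did not overlap, and the 2 regions had ratios of opposite sign at this scale. The region inside is described because its ratio was the largest of the gene, and its interval does not allow for that choice. The 2 remaining regions, with 59 and 25 Duroc reads, had intervals that included 0.

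HSP90AA1, the stress-inducible cytosolic HSP90, is annotated on a scaffold with no chromosome, from 917500 to 921977. The intervals analysed lie on chromosomes 1 to 18, X and Y, so HSP90AA1 had no region and is not described further. The constitutive cytosolic HSP90, HSP90AB1, held 2912 Duroc and 1815 Luchuan reads and had a ratio of -0.12 (-0.20 to -0.03).

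DNAJB1, the J protein that stimulates the ATPase of HSP70, lies on chromosome 2 from 64761672 to 64764482. The region across its lower end, from 64760918 to 64762459, had 1486 reads in Duroc and 1010 in Luchuan and a ratio of 0.01 (-0.11 to 0.13). Its only other region, 9.54 kb away from 64751598 to 64752667, spans an end of TECR and had 737 and 450 reads and a ratio of -0.14 (-0.32 to 0.03). That region was the farthest inside the window of 10 kb, and the nearest one outside it, near HSPB6, had a ratio of 0.02 (-0.15 to 0.20).

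BAG3 couples HSP70 and HSPB8 to autophagy at the Z-disc. It lies on chromosome 14 from 129510240 to 129533998, and no other gene is annotated within 10 kb. It had the most regions, 12, which held 5247 Duroc and 3708 Luchuan reads over 6371 bases, or 824 Duroc and 862 scaled Luchuan reads per kb. The ratios lay on both sides of 0, with 7 above and 5 below, from -0.22 to 0.22. The region across its lower end, from 129509950 to 129511173, had 1151 and 817 reads and a ratio of 0.07 (-0.06 to 0.20). The most reads lay inside the gene, from 129524759 to 129526218, with 1303 and 967 reads and a ratio of 0.14 (0.01 to 0.26). The highest ratio, from 129517561 to 129518186, was 0.22 (0.03 to 0.41) with 533 and 419 reads. These were the only regions of BAG3 whose interval left out 0, and the region with the most reads was at -0.06 with the clean reads as the scale. The 2 regions inside BAG3 that were called in Duroc alone had ratios of -0.04 and -0.02, unlike the 4 inside HSPB8. HSPB8 and BAG3, whose proteins work together, thus had summed ratios of -0.27 (-0.35 to -0.19) and 0.07 (0.005 to 0.13), with intervals that did not overlap.

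The regions at the gene ends differed from gene to gene. Taking the 1 region at or nearest an end of each gene, the interval lay below 0 for HSPB1 and HSPB7 and above 0 for HSPH1, as given above, and the region beside the other end of HSPB8 was at -0.40. The 9 regions together held 10235 Duroc and 6739 Luchuan reads, with a ratio of -0.04 (-0.08 to 0.01), against -0.10 (-0.12 to -0.07) for all 57 regions. By family, the 37 regions of the small heat shock proteins summed to -0.18 (-0.22 to -0.15). Of them, 33 had a ratio below 0, against 51.3% of all regions. Those called in Duroc alone were picked by the same libraries, and over all such regions the median ratio was -0.38. The 6 regions of HSPA8 and HSPH1 summed to 0.02 (-0.05 to 0.10), and the 14 regions of DNAJB1 and BAG3 to 0.04 (-0.02 to 0.09). With the clean reads as the scale, each of these sums was lower by 0.20, and the last 2 were then below 0. The intervals of the small heat shock proteins and of the other families did not overlap, but the regions all come from the same pooled libraries and are not replicates.

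Other genes of the chaperone system were taken from lists of chaperones, co-chaperones, heat shock factors and autophagy partners of BAG3. Of 70 listed genes, 67 were found, with HSPA1A and HSPA1B as 1 gene, HSP70.2. Their ratio was below 0 for 32 and above 0 for 35, with a median of 0.01, against 50.2% of all genes below 0. The interval was below 0 for 19 and above 0 for 18 of the 67, against 24.7% and 23.2% of all genes. Among other genes listed as small heat shock proteins, 4 of 5 were below 0. The ratio ran from -0.25 for HSPB2, which shares its regions with CRYAB, to 0.11 for HSPB11. Among 13 genes of the HSP70 and HSP110 family, the ratio ran from -0.36 (-0.50 to -0.22) for HSPA9, the mitochondrial HSP70, to 0.41 (0.26 to 0.56) for HSPA4L, an HSP110 protein. In the HSP90 family, it ran from -0.24 for TRAP1, the mitochondrial HSP90, to 0.18 for HSP90B1, that of the endoplasmic reticulum.

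Of all genes, 50.2% had a ratio below 0 at this scale, and the J proteins and chaperonins are given beside that share. Of 14 J protein genes, 3 had a ratio below 0 and 11 had a ratio above 0, with a median of 0.09, from -0.30 (-0.47 to -0.13) for DNAJA4 to 0.22 (0.08 to 0.35) for DNAJA1. Of 10 chaperonin genes, which encode folding chambers of mitochondria and cytosol, 4 were below 0 and 6 above, with a median of 0.10, from -0.33 (-0.51 to -0.15) for CCT8 to 0.24 (0.09 to 0.39) for CCT2. HSPD1 and HSPE1, the mitochondrial chaperonin and its lid, share a region and are not separate values. Both medians were below 0 with the clean reads as the scale, which lowers every value by 0.20. Of 15 other co-chaperones, 8 were below 0 and 7 above, from -0.26 (-0.38 to -0.14) for STUB1, a ubiquitin ligase that works with HSP70, to 0.27 (0.14 to 0.40) for AHSA1, an activator of HSP90.

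**Figure D5:**
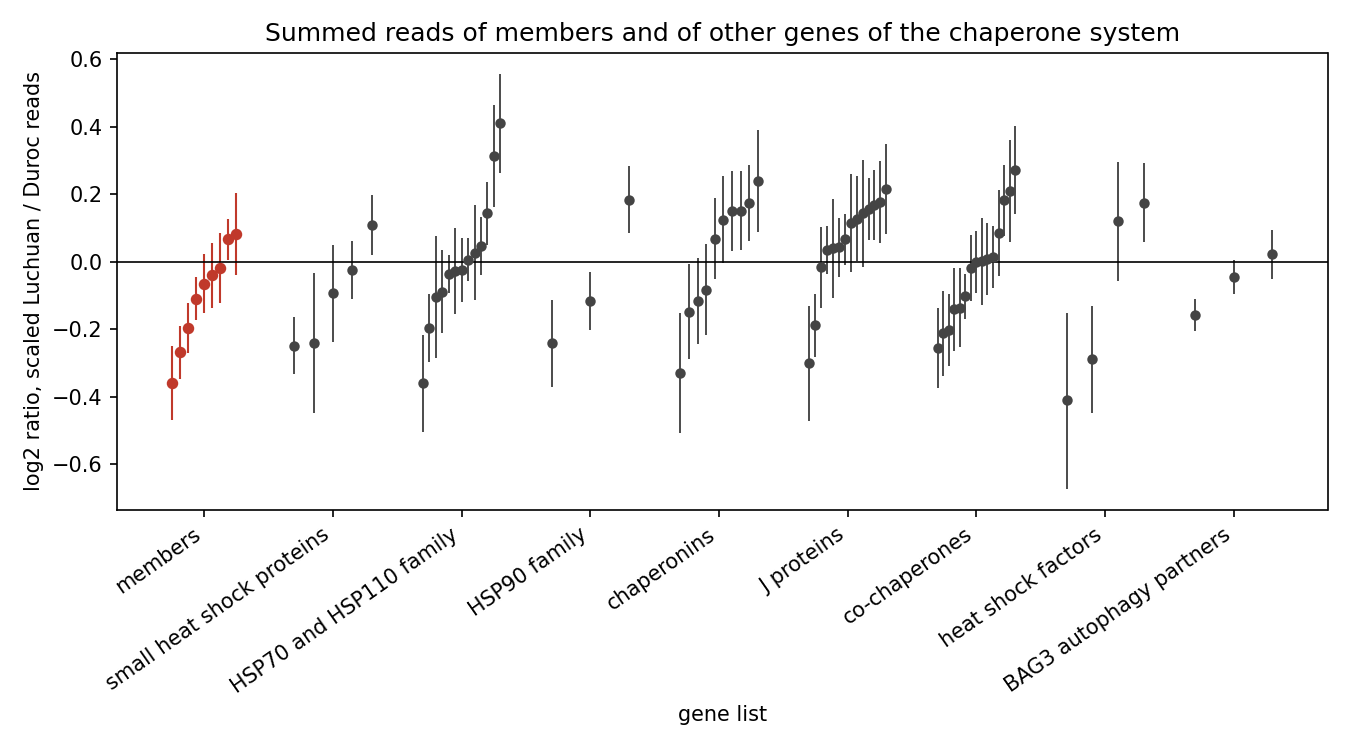
Log2 ratio of summed scaled Luchuan to Duroc reads per gene, with 95% Clopper-Pearson intervals for counting error, for the 9 chaperone genes described (red) and for 67 other genes of the chaperone system by list (grey), sorted within each list. Every list has genes on both sides of 0 at this scale, and no gene shown differs by 2-fold.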

How the data were processed

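The ATAC-seq libraries of 3 boars per breed were used, and the RNA-seq libraries were not analysed here. Per the labels, Trimmomatic 0.36 served for filtering, Bowtie2 for alignment to Sscrofa11.1 and MACS2 for peak calling. Removal of duplicates, a shift for the transposase and the pooling of boars are not given in the sources used here. The deposited counts are whole numbers, 1 for each interval and breed, and were taken to pool the 3 boars. They also deposited a log2 ratio and an average log2 signal after rescaling, and a p-value. These hold the authors' own comparison and were not used.

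Starts were taken as counted from 0 and are given from 1. Common intervals that overlapped or adjoined were merged, and the longest stood for the region, a rule carried over from earlier work on the same table. The log2 ratio of a region has 1 added to each scaled count, and that of a gene is of its summed reads. Positions came from 19533 protein-coding genes of RefSeq Sscrofa11.1 on placed chromosomes, in a table without strand or exons, so both gene ends stand in for the start. Promoters, introns and exons were not separated, and no sequence was read. With 1 count per breed no count model was fitted. Described in full are the region nearest an end of each gene, the one with the most reads, and the one with the largest absolute ratio among those with 50 or more reads. From each other list, the genes with the largest and smallest ratio are named. The genes and lists were chosen with earlier results of these data known. Alternatives covered the scale, window, merging, read minimum, added count and fold limit. Ratios and intervals were tested on simulated data. Computation was done in Python 3.11.15 with SciPy 1.17.1, NumPy 2.4.6 and pandas 2.3.3, and plots with Matplotlib 3.10.9.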

Additional observations from a re-analysis of the deposited data

How the results depend on the processing

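No paired analysis was possible because the counts are given once per breed, and for the same reason no replicate could be left out. The scale moved the values most. With the clean reads as the scale the summed ratios were -0.31 (HSPB1), -0.27 (HSPB6), -0.56 (HSPB7), -0.47 (HSPB8), -0.40 (CRYAB), -0.22 (HSPA8), -0.12 (HSPH1), -0.24 (DNAJB1) and -0.13 (BAG3). Those of the region with the most reads were, in the same order, -0.17, -0.28, -0.65, -0.28, -0.48, -0.20, -0.031, -0.19 and -0.064, the median of the 57 regions was -0.34 and 6 regions were at least 2-fold higher in Duroc. Without scaling the summed ratios were -0.68, -0.63, -0.93, -0.83, -0.76, -0.58, -0.48, -0.61 and -0.50. Those of the regions with the most reads were -0.54, -0.65, -1.02, -0.65, -0.84, -0.57, -0.40, -0.56 and -0.43, the median was -0.70 and 10 regions were at least 2-fold higher in Duroc. The median of all genes was -0.20 and -0.57 under these scales, so the order of the genes was the same. The median of all regions moved as well, to -0.21 and -0.57. The share of all regions past 2-fold was not counted under these scales, so the counts of 6 and 10 are not read as a result about these genes. A scale that follows the signal gave -0.044 for HSPB1, and HSPA8 and DNAJB1 turned to 0.07 and 0.03. With 1.5-fold in place of 2-fold, 6 regions were higher in Duroc, against 14.7% of all regions. Total reads as the scale, windows of 2 kb and 20 kb, every listed interval, the interval with the most reads, 50 or more reads and 0.5 added to each count moved no value past its counting interval and no count of regions by over 1.5 times. Values near 0 changed sign within these: HSPA8, from -0.02, to 0.01 with total reads and to 0.002 with every listed interval, its deepest region, from -0.00, to 0.03 with total reads, and DNAJB1, from -0.04, to 0.01 with the window of 2 kb. The lead of HSPB7 over HSPB8 and CRYAB was nearly lost with the window of 2 kb, at -0.271, -0.268 and -0.266. Depth limited the weakest regions: 46 reads in 1 region of HSPH1 gave an interval of -0.59 to 1.21.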

Other observations

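The other listed partners of BAG3 in chaperone-assisted autophagy had ratios from -0.16 to 0.02. FLNC, the filamin C of the Z-disc, had 9322 Duroc and 5646 Luchuan reads in 22 regions and a ratio of -0.16 (-0.20 to -0.11). SYNPO2, a Z-disc protein that binds BAG3, had 7768 and 5084 reads in 39 regions and a ratio of -0.05 (-0.10 to 0.01). SQSTM1, an autophagy receptor, had 3815 and 2616 reads in 12 regions and a ratio of 0.02 (-0.05 to 0.09). No region of these 3 genes differed by 2-fold.

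The heat shock factors pointed both ways. HSF1, which drives the heat shock response, had 914 Duroc and 505 Luchuan reads and a ratio of -0.29 (-0.45 to -0.13). HSF5 had the lowest ratio of all 67 genes, -0.41 (-0.67 to -0.15), with 366 and 186 reads. HSF2 had 1380 and 1052 reads and a ratio of 0.18 (0.06 to 0.29), and HSBP1, a binding protein of heat shock factors, had 0.12 (-0.06 to 0.29). With the clean reads as the scale, the ratio of HSF2 was below 0.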
